A study of Mus musculus with 4 samples.

Results

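The genes described here encode proteins that make or break down prostaglandins and leukotrienes, and they are Ptgs1, Ptgs2, Hpgds, Hpgd, Alox5ap and Ltc4s. They were taken by symbol from the 11820 genes of the count matrix, and all 6 were found. They had been selected on their levels by maturation stage and by diet in earlier results of these same cells, so their differences between stages and diets are given as a description, with fold changes and standard errors (SE) but without p-values. The cells were sorted from the colon of male C57/Bl6N mice, 6 to 7 weeks old, that had received either chow or a coconut-based high-fat diet (HFD, 60% fat) for 1 week. The labels name no genetic change and no further treatment. The sort kept live CD45+ Lin- CD11b+ CD24- cells that were Ly6C+ or CD64+, and each of the 4 mice, chow replicates 9 and 11 and HFD replicates 1 and 3, gave 1 single-cell library in which every captured RNA molecule carries a unique molecular identifier (UMI).

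Prostaglandins and leukotrienes are short-lived lipid messengers that cells make from arachidonic acid released from their membranes. Cyclooxygenases turn it into prostaglandin H2, from which dedicated synthases form prostaglandin D2, prostaglandin E2, prostacyclin or thromboxane, while 5-lipoxygenase together with its activating protein starts the leukotriene branch. In the gut these lipids act on epithelium, blood vessels, smooth muscle and immune cells, and macrophages are among their sources.

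Each mouse gave 904 to 2002 cells and 3824228 to 7947893 UMIs, with a median of 3266 to 3926 UMIs per cell. All 8 genes of a list of general macrophage and monocyte markers had UMIs over the cells of every mouse, and 1 of the 8 eosinophil markers and 2 of the 11 mast cell markers were in the matrix at all. Cells were placed into 4 stages by 3 sets of genes that hold none of the 6 enzymes. Stage 4 comprised cells in which the complement genes C1qa, C1qb and C1qc made up at least 5000 CPM (the gene's UMIs as parts per 1000000 of all UMIs of the cell, or of the cells summed). Of the other cells, stage 1 had a Ly6c2 UMI and MHC II genes (H2-Aa, H2-Ab1 and H2-Eb1) below 15000 CPM, stage 2 had a Ly6c2 UMI and MHC II at or above that level, and stage 3 had MHC II at or above that level without Ly6c2. This order runs from monocyte-like to resident macrophage-like cells. Stage 4 held 745 and 1812 cells of the chow mice but 399 and 557 cells of the HFD mice, and stage 1 held 66 and 76 against 288 and 349. Stage 2 had 4 cells in chow replicate 9 and was therefore not fitted. The stages are ranges and not cell types, since 655 cells lay within 2500 to 10000 CPM of C1q and 210 cells had no stage. A barcode occurred in more than 1 mouse for 46 cells.

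Both cyclooxygenases convert arachidonic acid to prostaglandin H2. Ptgs1 (ENSMUSG00000047250, chr2:36230426-36252272, GRCm38) encodes the form that many cells carry at rest, and Ptgs2 (ENSMUSG00000032487, chr1:150100031-150108227) the form that is induced by inflammatory and mitogenic signals. Hpgds (ENSMUSG00000029919, chr6:65117293-65144908) encodes the hematopoietic prostaglandin D synthase, which makes prostaglandin D2. Hpgd (ENSMUSG00000031613, chr8:56294585-56321043) encodes 15-hydroxyprostaglandin dehydrogenase, which starts the breakdown of prostaglandins. Alox5ap (ENSMUSG00000060063, chr5:149264767-149288153) encodes the protein that presents arachidonic acid to 5-lipoxygenase, and Ltc4s (ENSMUSG00000020377, chr11:50236461-50238616) encodes leukotriene C4 synthase, which joins glutathione to leukotriene A4. Other annotated genes overlapped 5 of the 6, but none of them was in the matrix.

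Because Ptgs1, Hpgds and Ltc4s had like levels over mice and stages while Ptgs2 did not follow them, the 250 bases before the RefSeq start of each of these genes on GRCm38.p6 are shown, 5′ to 3′ on the gene's strand. The intervals are chr2:36230176-36230425 (plus strand) for Ptgs1, chr6:65144731-65144980 (minus strand) for Hpgds, chr11:50238533-50238782 (minus strand) for Ltc4s and chr1:150099781-150100030 (plus strand) for Ptgs2. Capitals mark matches to AGGAAGT, a core of sites for ETS factors such as PU.1, and to TTGCNNAA, a core of sites for C/EBP factors, on either strand.
Ptgs1: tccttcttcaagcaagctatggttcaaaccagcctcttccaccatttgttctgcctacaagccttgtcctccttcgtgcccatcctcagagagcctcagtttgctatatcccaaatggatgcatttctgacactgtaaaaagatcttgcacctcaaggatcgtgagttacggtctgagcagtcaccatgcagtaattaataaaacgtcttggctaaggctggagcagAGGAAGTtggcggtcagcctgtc
Hpgds: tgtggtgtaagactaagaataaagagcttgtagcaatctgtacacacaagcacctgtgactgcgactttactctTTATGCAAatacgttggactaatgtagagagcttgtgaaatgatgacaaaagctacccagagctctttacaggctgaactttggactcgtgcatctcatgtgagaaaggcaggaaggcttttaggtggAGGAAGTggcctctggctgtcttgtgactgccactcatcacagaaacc
Ltc4s: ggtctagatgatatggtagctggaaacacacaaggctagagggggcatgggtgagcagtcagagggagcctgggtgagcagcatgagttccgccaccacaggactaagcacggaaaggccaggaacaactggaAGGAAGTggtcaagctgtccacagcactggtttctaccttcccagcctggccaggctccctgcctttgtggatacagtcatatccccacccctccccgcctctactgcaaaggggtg
Ptgs2: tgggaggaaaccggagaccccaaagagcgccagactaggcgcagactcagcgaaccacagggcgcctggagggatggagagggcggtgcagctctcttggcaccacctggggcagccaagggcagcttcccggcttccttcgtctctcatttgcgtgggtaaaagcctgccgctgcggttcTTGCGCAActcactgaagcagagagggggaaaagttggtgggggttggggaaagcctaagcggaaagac

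The motif AGGAAGT began 23 bases before the RefSeq start in Ptgs1, 48 bases before it in Hpgds and 117 bases before it in Ltc4s. It was absent from the windows of Ptgs2 and Hpgd. In Hpgds and Ltc4s the RefSeq start lies inside the gene interval given above, so part of each window lies within that interval. The marked matches of Hpgds lie in that part, and that of Ltc4s does not. Over windows of 300 bases, which add 50 bases after the start, 9.35% of 32851 RefSeq promoters held AGGAAGT or its reverse ACTTCCT. The motif TTGCNNAA began 69 bases before the start in Ptgs2 and 176 bases before it in Hpgds, and 10.8% of the promoters held it or its reverse. Among the 5 members with a promoter in the table, TGACGT, a core of cyclic AMP response elements, was found within the 50 bases after the start of Ptgs2 only and occurred in 7.51% of all promoters. A match of TATAAA lay within the 50 bases after the RefSeq start of Hpgd only and occurred in 13.6%. The RefSeq window of Hpgd was chr8:56294302-56294601, whereas the gene interval given above begins at 56294585. The match lies before that position. None of these motifs overlapped another in the 5 windows. The motifs were chosen with the levels known, and a match describes the letters and not binding.

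Over all cells, Ptgs1, Hpgds, Hpgd and Ltc4s were lower in both HFD mice than in both chow mice, and Ptgs2 and Alox5ap were higher. UMIs were summed per mouse, and in such sums fewer cells that carry a gene and less RNA per cell cannot be told apart. In edgeR's quasi-likelihood fit at a false discovery rate (FDR) of 1%, 16.2% of the 4955 genes tested were called, and 5 of the 6 members were among them, a count that the choice of members fixes in part and from which nothing is read. With 2 mice per diet the smallest p-value of an exact permutation test is 0.33, and the labels name each sample as a mouse.

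Ptgs1 was at 296.4 and 275.9 CPM in the chow mice and at 70.6 and 68.6 CPM in the HFD mice, a log2 fold change of -2.26 ± 0.12 (SE). Hpgds was at 289.1 and 291.3 CPM with chow and at 63.0 and 48.5 CPM with HFD (log2 fold change -2.61 ± 0.16). Hpgd was at 193.6 and 189.4 CPM with chow and at 36.6 and 39.8 CPM with HFD (log2 fold change -2.54 ± 0.13). For these 3 genes the chow mice lay 4.11-fold, 5.20-fold and 5.02-fold above the HFD mice by their means, and the mice of a diet lay close together. Ltc4s was at 112.2 and 128.3 CPM with chow and at 28.5 and 20.4 CPM with HFD (log2 fold change -2.54 ± 0.20). Alox5ap was at 314.4 and 281.6 CPM with chow and at 971.7 and 762.9 CPM with HFD (log2 fold change 1.32 ± 0.15). Ptgs2 was at 231.5 and 234.9 CPM with chow and at 452.9 and 386.4 CPM with HFD, and with a log2 fold change of 0.63 ± 0.13 it was the member that was not called. It was called in 4 of 10 alternatives, with the likelihood-ratio test (0.63), DESeq2 (0.64), no filter (0.73) and without plasma and epithelial cells (0.64). All 5 calls remained when each mouse was left out in turn.

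**Figure D1:**
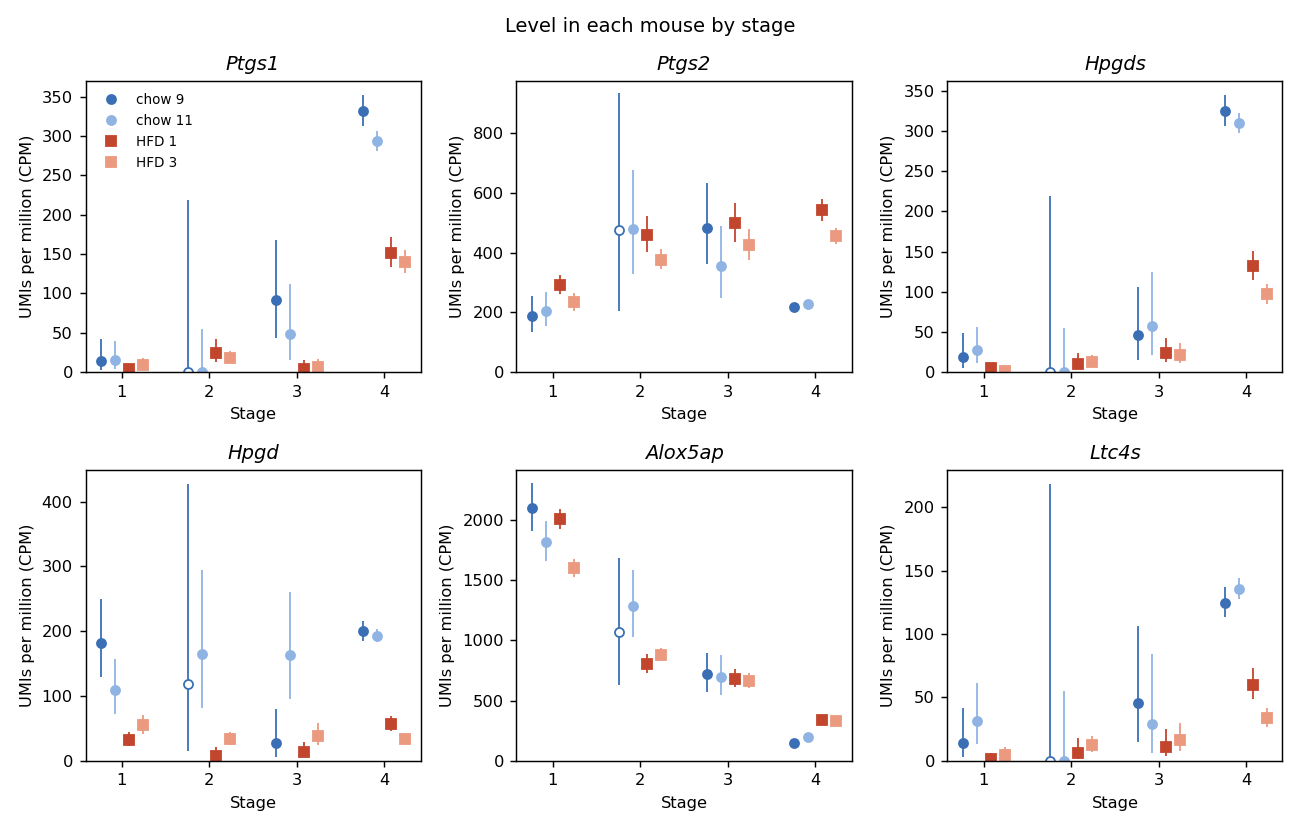
Level of each enzyme gene (vertical axes, CPM of the UMIs summed per mouse) in stages 1 to 4 (horizontal axes) for the 2 chow and 2 HFD mice, with 95% Poisson intervals that cover counting error only; open markers are sums of fewer than 20 cells. Ptgs1, Hpgds and Ltc4s stand highest in stage 4 in every mouse, Alox5ap stands highest in stage 1, and Hpgd is lower in the HFD mice in all stages but for chow replicate 9 in stage 3.

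The stages separated the enzymes into a group of late genes, an early gene and genes with neither pattern. Between stage 4 and stage 1, in a fit with a term for each mouse, 19.7% of 5513 genes were called, and 5 of the 6 members were called. From stage 1 to stage 3 the share called was 6.64% of the same genes, with 3 members called, and from stage 3 to stage 4 it was 3.56%, with 4 members called. The members' stage patterns were known when they were chosen, so these counts are given beside the shares without a reading.

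Ptgs1 was highest in stage 4 in every mouse. In stage 1 its 3, 4, 5 and 10 UMIs in chow replicates 9 and 11 and HFD replicates 1 and 3 gave 14.4, 15.5, 4.41 and 9.63 CPM, and in stage 4 it reached 332.2, 293.6, 151.6 and 140.1 CPM. The fitted difference from stage 1 to stage 4 was 4.49 ± 0.32 on the log2 scale, of which 3.50 ± 0.33 fell between stages 3 and 4. Without chow replicate 9 the latter step was 4.18. The step from stage 1 to stage 3, at 0.98 ± 0.54, was not called, but at C1q limits of 10000 and 20000 CPM it was called at 2.09 and 3.89. In stage 3 the chow mice had 91.1 and 47.9 CPM and the HFD mice 4.35 and 6.49 CPM, from 10, 5, 2 and 4 UMIs, and Ptgs1 was below the filter of the diet fit in stages 1 and 3.

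Hpgds had a like order of stages. It was at 19.1, 27.1, 5.29 and 0.963 CPM in stage 1 (4, 7, 6 and 1 UMIs in chow replicates 9 and 11 and HFD replicates 1 and 3) and at 325.1, 309.8, 132.2 and 96.6 CPM in stage 4. The log2 difference from stage 1 to stage 4 was 4.59 ± 0.28. In stage 3 it was intermediate, at 45.6, 57.5, 23.9 and 21.1 CPM, and the step from stage 1 to stage 3 was 1.99 ± 0.42, a call that was lost without either HFD mouse and without the term for mouse.

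Ltc4s rose from 14.4, 31.0, 1.76 and 4.81 CPM in stage 1 (3, 8, 2 and 5 UMIs) to 124.7, 135.6, 60.0 and 33.7 CPM in stage 4, with a log2 difference of 3.26 ± 0.34. Of this, 1.88 ± 0.34 lay between stages 3 and 4. The Ltc4s step from stage 1 to stage 3, at 1.38 ± 0.52, was not called, but at C1q limits of 10000 and 20000 CPM it was called at 1.72 and 2.43. Without the term for mouse, the calls between stages 3 and 4 were lost for Ptgs1 (3.71), Hpgds (3.11) and Ltc4s (2.47), and with a C1q limit of 20000 CPM for these (1.33, 1.08 and 0.88) and for Alox5ap (-0.80). In stage 2 the chow mice had no UMI of Ptgs1, Hpgds or Ltc4s in 4 and 23 cells, and the HFD mice had 3 to 23 UMIs of each, so these 3 genes were not measurable there with chow.

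Alox5ap had the opposite order. It was at 2104 and 1818 CPM in the chow mice and at 2009 and 1602 CPM in the HFD mice in stage 1, and the diets overlapped. Stage 2 had 1067, 1285, 803.9 and 882.1 CPM, stage 3 had 719.7, 699.1, 682.8 and 664.0 CPM, and stage 4 had 146.3, 195.6, 340.8 and 331.7 CPM, so that in every mouse each later stage was lower than the one before. The log2 difference was -1.49 ± 0.19 from stage 1 to stage 3 and -1.29 ± 0.19 from stage 3 to stage 4, which makes -2.79 ± 0.19 from end to end.

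Among the stages of the chow mice, Ptgs2 stood highest in those that were MHC II-high and C1q-low. It was not confined to MHC II-high cells, since the MHC II-low cells without a stage had 469.4 and 550.6 CPM with chow. Those cells had 604.8 and 261.8 CPM with HFD. With chow Ptgs2 was at 186.5 and 205.5 CPM in stage 1, at 474.0 and 478.2 CPM in stage 2, at 482.9 and 354.3 CPM in stage 3 and at 216.4 and 228.0 CPM in stage 4. With HFD it was at 292.9 and 233.9 CPM in stage 1, at 458.2 and 375.8 CPM in stage 2, at 498.0 and 425.3 CPM in stage 3 and at 541.0 and 454.3 CPM in stage 4, so the fall from stage 3 to stage 4 seen with chow was not seen with HFD. Over all mice the log2 difference from stage 1 to stage 3 was 0.90 ± 0.19, a call that was lost without chow replicate 9 (0.78), HFD replicate 1 (0.92) or HFD replicate 3 (0.90), without the term for mouse (0.90) and at an MHC II limit of 30000 CPM (0.68). That from stage 1 to stage 4 was 0.75 ± 0.17, a call that was lost without HFD replicate 1 (0.62) or HFD replicate 3 (0.61), without the term for mouse (0.76), with Ward clusters (0.57) and at a C1q limit of 20000 CPM (0.35).

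Hpgd had no common order of stages. In the chow mice it was at 181.7 and 108.6 CPM in stage 1, at 118.5 and 164.4 CPM in stage 2 (2 and 11 UMIs), at 27.3 and 162.8 CPM in stage 3 (3 and 17 UMIs) and at 200.5 and 193.0 CPM in stage 4. The HFD mice had 31.8 and 54.9 CPM in stage 1, 8.04 and 33.4 CPM in stage 2, 13.1 and 39.0 CPM in stage 3 and 56.4 and 34.1 CPM in stage 4. The log2 difference from stage 1 to stage 4 was 0.44 ± 0.29 and Hpgd was the member that was not called there, while cells that fitted no stage had 184.4 and 169.4 CPM with chow and 11.9 and 87.3 CPM with HFD.

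**Figure D2:**
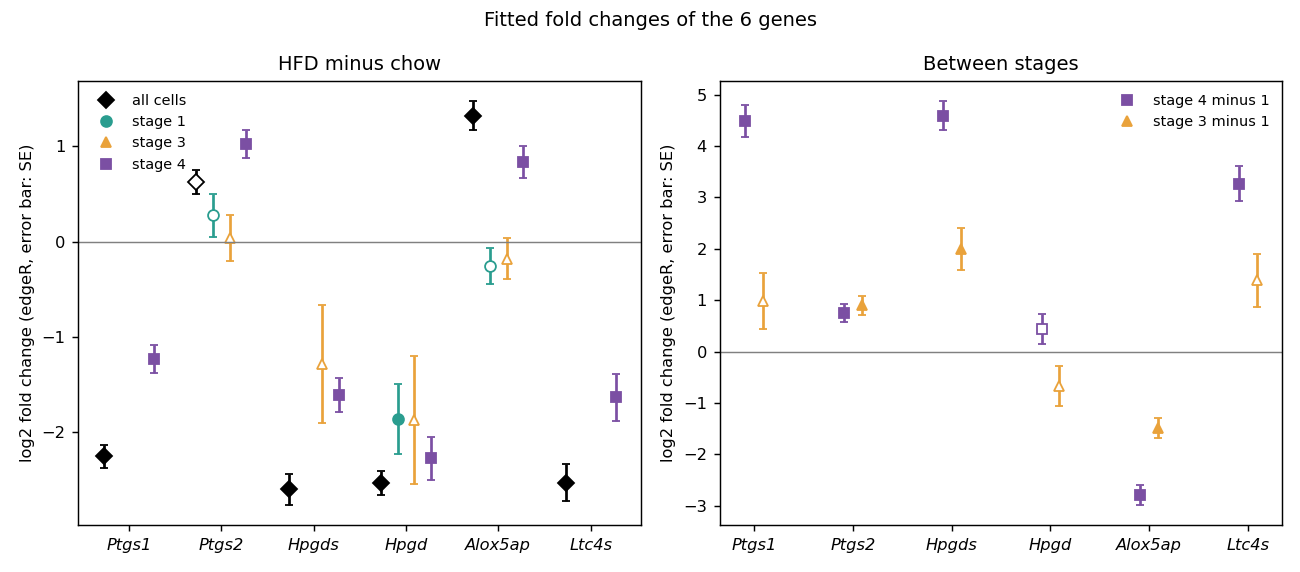
Fitted log2 fold changes (vertical axes, edgeR, error bars are SE) of the 6 genes (horizontal axes), for HFD over chow over all cells and within stages, and between stages; open markers were not called at an FDR of 1%. Hpgd stands between -1.87 and -2.54 for diet in the fits drawn, of which that of stage 3 moves to -0.12 without chow replicate 11, while Alox5ap is at 1.32 over all cells, at 0.84 in stage 4 and at -0.26 in stage 1.

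Within stage 4, where 9.66% of 5095 genes were called for diet, the 6 members lay in the same direction as over all cells and all 6 were called. Hpgd fell from 200.5 and 193.0 CPM with chow to 56.4 and 34.1 CPM with HFD, a log2 fold change of -2.28 ± 0.23. Hpgds had a log2 fold change of -1.61 ± 0.18, and these are the calls that held without each mouse in turn. Ptgs1 was lower at -1.24 ± 0.15, a call lost without HFD replicate 3 (-1.16). Ltc4s was lower at -1.64 ± 0.25, a call lost without HFD replicate 3 (-1.23). Ptgs2 was higher at 1.03 ± 0.15, a call lost without HFD replicate 1 (0.87). Alox5ap was higher at 0.84 ± 0.16, and its call was lost without chow replicate 9 (0.65), HFD replicate 1 (0.79) or HFD replicate 3 (0.88), without doublets (0.83) and at C1q limits of 10000 (0.73) and 20000 CPM (0.28). For each of the 6 genes both HFD mice lay on the same side of both chow mice. The share of all genes with such a separation was not computed, so nothing is read from it.

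Stage 1 gave another picture. There 1.05% of 4555 genes were called for diet, and of the 3 members above the filter Hpgd was called, at -1.87 ± 0.36 on the log2 scale from 181.7 and 108.6 CPM with chow and 31.8 and 54.9 CPM with HFD. The groups did not overlap, but this call was lost in 9 of 17 alternatives, with values between -1.51 and -1.90. They were the fits without chow replicate 9 (-1.51), without HFD replicate 1 (-1.52), without doublets (-1.86) and without shared barcodes (-1.87), those with C1q limits of 10000 or 20000 CPM, an MHC II limit of 7500 CPM or 2 Ly6c2 UMIs, and that with Ward clusters. Ptgs2 differed by 0.28 ± 0.23 and Alox5ap by -0.26 ± 0.19, and neither was called. The stage 1 cells of the chow mice also held more UMIs of B and plasma cell markers, 40640 and 76540 CPM for 4 of the 8 listed genes against 8529 and 6554 CPM with HFD, and without the 8 immunoglobulin-rich cells and the 1 epithelium-rich cell of stage 1 the Hpgd value was -1.94 and was called, unlike without doublets or shared barcodes. In stage 3, 2.52% of 4522 genes were called and none of the 4 members above the filter, with Hpgd at -1.88 ± 0.68, Hpgds at -1.29 ± 0.62, Ptgs2 at 0.03 ± 0.24 and Alox5ap at -0.18 ± 0.21. The value of Hpgd rested on single mice, at -0.12 without chow replicate 11, at -2.88 without HFD replicate 3, and at -2.66 and called without chow replicate 9. C1q limits of 10000 and 20000 CPM add cells with more C1q to stage 3, and 309 of 4534 and 754 of 4895 genes were then called. Among them were Hpgd (-2.82 and -2.72) and Hpgds (-2.57 and -2.59), and at 20000 CPM also Ptgs2 (0.86) and Alox5ap (0.96). In stage 3 the 9 dendritic cell markers summed to 437.3 and 526.7 CPM with chow and to 1081 and 792.2 CPM with HFD. The 4 B and plasma cell markers measured summed there to 14540 and 402.2 CPM with chow and to 152.2 and 97.4 CPM with HFD. Their part in the stage 3 results was not tested.

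The diet effect of stage 1 minus that of stage 4 was fitted as an interaction, in which 1.03% of 5513 genes were called. It uses the stage and diet values on which the members had been selected and is a description of them. Alox5ap was the member past the threshold, at -1.01 ± 0.20, and its call was lost without chow replicate 9 (-0.82), HFD replicate 1 (-1.15) or HFD replicate 3 (-0.91). For Hpgd the difference was 0.51 ± 0.49 and for Ptgs2 it was -0.66 ± 0.24, neither of which was called. Ptgs1, Hpgds and Ltc4s had at most 10 UMIs per mouse in stage 1, so that their interaction could not be measured with useful precision (SE 0.67 to 0.78).

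Since the diets differed in the share of each stage, levels were also averaged over the stages with the same weights in every mouse (16.6% stage 1, 9.48% stage 2, 8.72% stage 3 and 65.2% stage 4). With equal shares Alox5ap was at 608.8 and 612.3 CPM with chow and at 691.6 and 623.8 CPM with HFD, a log2 ratio of 0.11 where the staged cells as collected gave 1.64. Hpgd was at 174.5 and 173.6 CPM with chow and at 43.9 and 37.9 CPM with HFD, a log2 ratio of -2.09 beside -2.34. With Ward clusters in place of the gates, which formed no stage 2 or 3, the log2 ratio at equal shares was 0.79 for Alox5ap and -2.31 for Hpgd. Ptgs1 had a log2 ratio of -1.11 at equal shares beside -2.04 (-1.85 with Ward clusters), Hpgds of -1.46 beside -2.38 (-2.18 with Ward clusters) and Ltc4s of -1.47 beside -2.29 (-2.11 with Ward clusters). Ptgs2, at 259.1 and 259.0 CPM with chow and at 488.2 and 407.7 CPM with HFD, had a log2 ratio of 0.79 beside 0.88. No test was made of these averages.

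**Figure D3:**
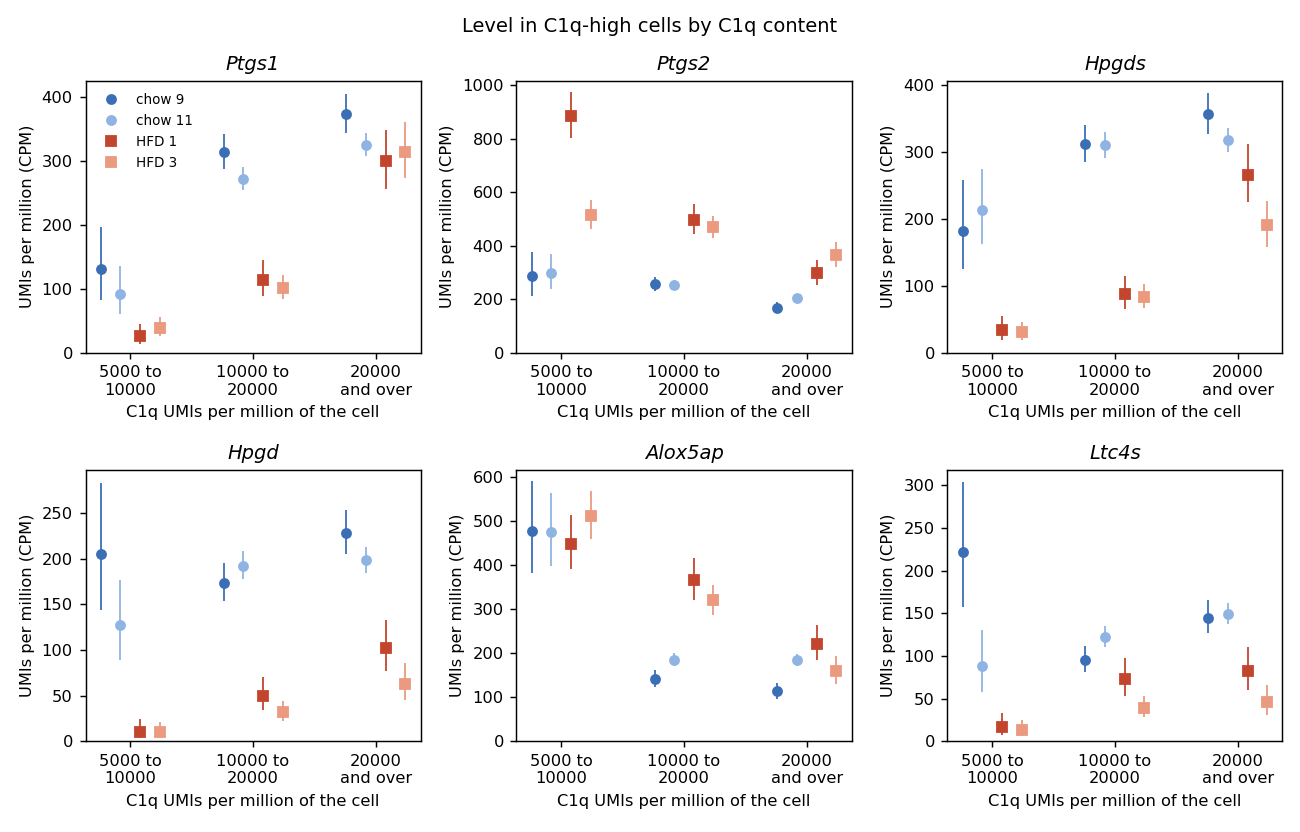
Level of each gene (vertical axes, CPM) in 3 bands of the stage 4 cells by C1q level (horizontal axes, CPM of C1qa, C1qb and C1qc) for each mouse, with 95% Poisson intervals. In the highest band the 4 mice lie at 300.0 to 374.3 CPM for Ptgs1, while Hpgd stays lower in both HFD mice in every band.

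Stage 4 itself was not alike in the diets, since the median C1q level was 19123 and 19945 CPM with chow and 16043 and 13418 CPM with HFD. Its cells were therefore divided into bands of C1q, a division added after seeing the data. In the band of 5000 to 10000 CPM Ptgs1 was at 130.9 and 92.3 CPM with chow and at 25.4 and 38.8 CPM with HFD, a ratio of HFD to chow of 0.288. The ratio was 0.368 at 10000 to 20000 CPM, and at 20000 CPM and over it was 0.879, with 374.3 and 325.4 CPM against 300.0 and 314.8 CPM. Ptgs1 thus differed little between the diets in the cells with the most C1q, where the fitted log2 fold change was -0.24 and was not called. Hpgds followed the same order with ratios of 0.162, 0.274 and 0.678. Hpgd kept a difference in each band, with ratios of 0.0621, 0.225 and 0.387 and no overlap of the diets. In the highest band 79 of 5155 genes were called, beside 492 of 5095 in stage 4 as a whole. Hpgd was the member called there, at -1.43, a count from which nothing is read about the other members.

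Ltc4s had ratios of 0.0961, 0.514 and 0.437 in the same bands, and at 20000 CPM and over the chow mice had 145 and 150 CPM and the HFD mice 82.6 and 46.1 CPM. In the lowest band its chow mice lay apart, with 222 CPM in replicate 9 (39 UMIs in 10 cells) and 88.8 CPM in replicate 11. The HFD mice had 16.9 and 12.9 CPM of Ltc4s there. Ptgs2 was higher with HFD in every band, with ratios of 2.40, 1.90 and 1.80, and its chow and HFD mice did not overlap in any of them. In the highest band the fitted values of Ptgs2 (0.79), Hpgds (-0.62), Ltc4s (-1.27) and Alox5ap (0.28) were not called. Alox5ap was at 478 and 476 CPM with chow and at 449 and 512 CPM with HFD in the lowest band, a ratio of 1.01, at a ratio of 2.10 in the middle band and of 1.28 in the highest, where the diets overlapped.

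Among stage 4 cells with a Cd4 UMI and none of Lyve1 or Cd163, Ptgs1 was at 408.6 and 359.2 CPM with chow and at 449.3 and 354.3 CPM with HFD, and the diets overlapped. The HFD mice had 25 and 26 such cells, with 20 and 19 UMIs of Hpgds and 11 and 6 of Hpgd. Hpgds was at 344.6 ± 6.9 CPM with chow and at 163.3 ± 28.4 CPM with HFD there (mean ± SD, n = 2 mice each), and Hpgd at 217.2 ± 15.4 and 73.0 ± 39.3 CPM. Cells with a Lyve1 or Cd163 UMI had 467 and 438.4 CPM of Ltc4s with chow, above the 97.4 ± 0.66 CPM of the stage 4 cells without Cd4, Lyve1 and Cd163 in the same mice. With HFD only 7 and 4 such cells were captured, and their 16 and 5 UMIs of Ltc4s gave 1068 and 537.9 CPM, above both chow mice and unlike the lower level with HFD in stage 4 as a whole. In the cells with Cd4 and without Lyve1 and Cd163, Ltc4s was at 117.4 and 126.4 CPM with chow and at 155.9 and 82.9 CPM with HFD, and the diets overlapped. None of these subsets was tested.

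Shares of stage 4 cells with a UMI followed the levels. With every cell thinned to 1500 UMIs, and the shallower cells left out, Hpgd was detected in 23.5% and 22.5% of the chow cells and in 8.96% and 5.87% of the HFD cells. Unthinned the shares were 43.1% and 41.1% against 14.5% and 9.51%. Ptgs2 was detected in 17.6% and 21.8% of the thinned chow cells and in 39.5% and 40.7% of the HFD cells, and Alox5ap in 15.2% and 20.6% against 31.4% and 36.2%. Ptgs1 was detected in 33.5% and 27.6% of the chow cells and 15.97% and 15.07% of the HFD cells, beside 0.752% to 4.05% of the thinned stage 1 cells; RNA released from other cells into the droplets was not measured here. For Hpgds the stage 4 shares were 37.5% and 33.4% with chow and 16.5% and 10.6% with HFD, and in stage 1 of HFD replicate 3 a UMI was found in none of 310 thinned cells and in 1 of 349 unthinned cells. Ltc4s was detected in 15.5% and 15.0% with chow and in 6.16% and 3.52% with HFD.

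Within stage 4 cells, Alox5ap was detected together with Hpgds less often than the product of both shares gives, at 0.62, 0.75, 0.38 and 0.36 of it in chow replicates 9 and 11 and HFD replicates 1 and 3. Alox5ap and Ptgs1 were together at 0.72, 0.59, 0.62 and 0.68 of the product. Alox5ap and Ltc4s did not share this, at 1.255, 1.056, 0.5795 and 1.228 of the product, from 21, 54, 4 and 8 cells. Ptgs1 and Hpgds were together at 1.08, 1.10, 2.55 and 1.72 times the product, from 96, 167, 24 and 14 cells. Cells of a mouse share a library, so these ratios are a description of each mouse, and no test was made.

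Other genes moved with the diets in the same stage 4 cells. The summed level of 8 monocyte markers, all detected, was 329.0 and 452.4 CPM with chow and 2462 and 2942 CPM with HFD. Plac8, a monocyte gene among them, was in the HFD mice at 10.9% and 14.6% of its stage 1 level, and in the chow mice at 0.802% and 1.26%, while Alox5ap was at 17.0% and 20.7% with HFD and at 6.95% and 10.8% with chow. The 12 resident macrophage markers summed to 25900 and 27050 CPM with chow and to 19290 and 17780 CPM with HFD. Most of these sums came from the 3 C1q genes, which define stage 4 and were at 19390 and 20290 CPM with chow and at 16430 and 15450 CPM with HFD, while Cd81, another gene of the list, was at 3187 and 3652 CPM against 1226 and 907.4 CPM. The 16 immediate-early and dissociation genes summed to 24320 and 23890 CPM with chow and to 14090 and 12220 CPM with HFD. The 4 B and plasma cell markers measured of 8 summed to 1808 and 1246 CPM with chow and to 171.6 and 125.1 CPM with HFD, and the 9 dendritic cell markers to 78.2 and 89.8 CPM against 167.4 and 156.7 CPM. The part of these genes' changes in the enzyme results was not tested. The 2 mast cell markers measured were at 2.37 and 4.04 CPM with chow and at 12.7 and 15.8 CPM with HFD in stage 4, the eosinophil marker at 0.812 to 4.25 CPM over the mice, and the 2 of 9 tuft cell markers measured at 40.6 to 46.1 CPM. The 3 of 9 neutrophil markers measured summed to 15.1 and 22.49 CPM with chow and to 38.81 and 37.35 CPM with HFD in stage 4.

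Over the 12 sums of 4 mice and 3 stages, each member's pattern on the scale of log2(CPM + 1) was compared with 5500 other genes by Pearson's r, as a description in which the sums of a mouse share its library. Closest to Ptgs1 were Apoe (r = 0.973), Ms4a7 (0.963), Tmem37 (0.958), C5ar1 (0.953) and Mmp13 (0.946). Closest to Hpgds were Herpud1 (0.963), Zmynd15 (0.960), Pmepa1 (0.951), Ms4a7 (0.950) and Mmp13 (0.948), and closest to Ltc4s were Pmepa1 (0.981), Cd81 (0.961), Sqstm1 (0.952), Mmp13 (0.951) and Ms4a7 (0.947). Ms4a7 and Mmp13 stood in all of these lists. Alox5ap was closest to Actg1 (0.989), Coro1a (0.985), Adssl1 (0.973) and AI839979 (0.973). Ptgs2 was closest to Uty (0.917), Parvg (0.916), Ccl17 (0.911), Gm26917 (0.908) and Slc7a11 (0.907), and Hpgd to Mat2a (0.912), Fos (0.911), Taok3 (0.890), Cd68 (0.874) and Rgs2 (0.863). Among the members, r was 0.926 for Hpgds with Ltc4s, 0.890 for Ptgs1 with Ltc4s and 0.858 for Ptgs1 with Hpgds, -0.864 for Hpgds with Alox5ap, and -0.729 for Ptgs2 with Hpgd.

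The remaining genes of arachidonate release, prostaglandin and leukotriene synthesis, transport and reception were taken from 6 lists with 81 genes, of which 49 were in the matrix and 30 passed the filter over all cells. With HFD, 3 of the 30 were called higher and 7 lower over all cells (edgeR's quasi-likelihood test, Benjamini-Hochberg adjusted), with a median log2 fold change of -0.24 beside -0.01 over all genes tested, of which 16.2% were called. Within stage 4, 2 were higher and 3 lower of 30, where 9.66% of all genes tested were called. Within stage 3, 1 of 23 was higher beside 2.52% of all genes, and within stage 1 none of 25 was called beside 1.05%. Among the genes under the filter were Alox5, the 5-lipoxygenase itself, with 215 UMIs over all cells, and Ptges, an inducible prostaglandin E synthase, with 26 UMIs.

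Of the 10 genes of the release list tested, Fabp5, which binds fatty acids in the cytosol, was higher and Pla2g15, Daglb and Abhd12 were lower over all cells. Fabp5 was at 56.1 and 49.3 CPM with chow and at 339.9 and 261.8 CPM with HFD (log2 fold change 2.30 ± 0.17, edgeR adjusted p = 0.000385). It was also higher in stage 4 at 2.76 ± 0.17 (edgeR adjusted p = 2.1e-05) and in stage 3 at 3.46 ± 0.51 (edgeR adjusted p = 0.000357), and these calls held without each mouse in turn. In stage 3 the value was 5.56 without chow replicate 9, and the call was lost at an MHC II limit of 30000 CPM (edgeR adjusted p = 0.0184) and with 2 Ly6c2 UMIs (2.17, edgeR adjusted p = 0.0185). Abhd12, a hydrolase of monoacylglycerols and lysophospholipids, was at 98.6 and 60.7 CPM with chow and at 21.7 and 21.5 CPM with HFD (-2.09 ± 0.25, edgeR adjusted p = 0.0018), and Daglb, a diacylglycerol lipase, at 39.4 and 39.1 CPM against 19.1 and 20.1 CPM (-1.22 ± 0.16, edgeR adjusted p = 0.00216). Both were lower in stage 4 as well, Abhd12 at -1.50 ± 0.27 and Daglb at -1.14 ± 0.22 on the log2 scale. Pla2g15, the lysosomal phospholipase A2, was lower over all cells at -0.92 ± 0.15 (edgeR adjusted p = 0.00555) and was not called in stage 4, at -0.49 ± 0.15 (edgeR adjusted p = 0.0515).

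Slco2b1, an organic anion transporter and 1 of 3 tested genes of transport and breakdown, fell from 58.7 and 59.4 CPM with chow to 12.8 and 4.66 CPM with HFD (-3.05 ± 0.38, edgeR adjusted p = 0.00192), and in stage 4 from 64.8 and 62.8 CPM to 27.9 and 9.74 CPM (-1.98 ± 0.36, edgeR adjusted p = 0.00508). Of the 4 synthesis genes tested, Tbxas1, the thromboxane synthase, was lower over all cells at -0.63 ± 0.11 (edgeR adjusted p = 0.0081), and in stage 4 it was at 0.003 ± 0.14 (edgeR adjusted p = 0.993). Ptger4, the EP4 receptor of prostaglandin E2 and the only prostanoid receptor tested, was lower over all cells at -1.09 ± 0.19 (edgeR adjusted p = 0.00694) and was not called in stage 4, at -0.79 ± 0.26 (edgeR adjusted p = 0.0636). In the leukotriene branch, Mgst1, a microsomal glutathione transferase, was higher over all cells at 1.89 ± 0.28 (edgeR adjusted p = 0.00356) and was not called in stage 4, at 0.82 ± 0.18 (edgeR adjusted p = 0.0118). Ltb4r1, the high-affinity receptor of leukotriene B4, was at 30.3 and 22.4 CPM with chow and at 104.6 and 87.2 CPM with HFD (1.67 ± 0.19, edgeR adjusted p = 0.00158), and in stage 4 it was higher at 1.31 ± 0.27 (edgeR adjusted p = 0.00868). Cmklr1, a receptor of chemerin and of resolvin E1, was lower over all cells at -0.82 ± 0.15 (edgeR adjusted p = 0.00778) and was not called in stage 4, at -0.47 ± 0.18 (edgeR adjusted p = 0.098).

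Of these 10 calls over all cells, those of Fabp5 and Slco2b1 held without each mouse in turn, with Slco2b1 at -3.89 without HFD replicate 1 and at -2.41 without HFD replicate 3. The calls of Tbxas1 (edgeR adjusted p = 0.0204) and Cmklr1 (edgeR adjusted p = 0.0129) were also lost without the filter. The other 8 were lost without at least 1 mouse, in each case an HFD mouse among them: the lowest and highest edgeR adjusted p without an HFD mouse were 0.01003 for Ltb4r1 and 0.0745 for Tbxas1. In stage 4 the call of Fabp5 held, those of Daglb, Abhd12 and Ltb4r1 were lost without either HFD mouse, and that of Slco2b1 without HFD replicate 3 (-1.31). Without HFD replicate 1 the stage 4 value of Slco2b1 was -2.87. At a C1q limit of 20000 CPM the calls of Slco2b1 (-0.70), Daglb (-0.94) and Abhd12 (-1.49) were lost too, as were that of Daglb at C1q limits of 2500 and 10000 CPM and those of Daglb and Ltb4r1 without doublets. Every value kept its direction.

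**Figure D4:**
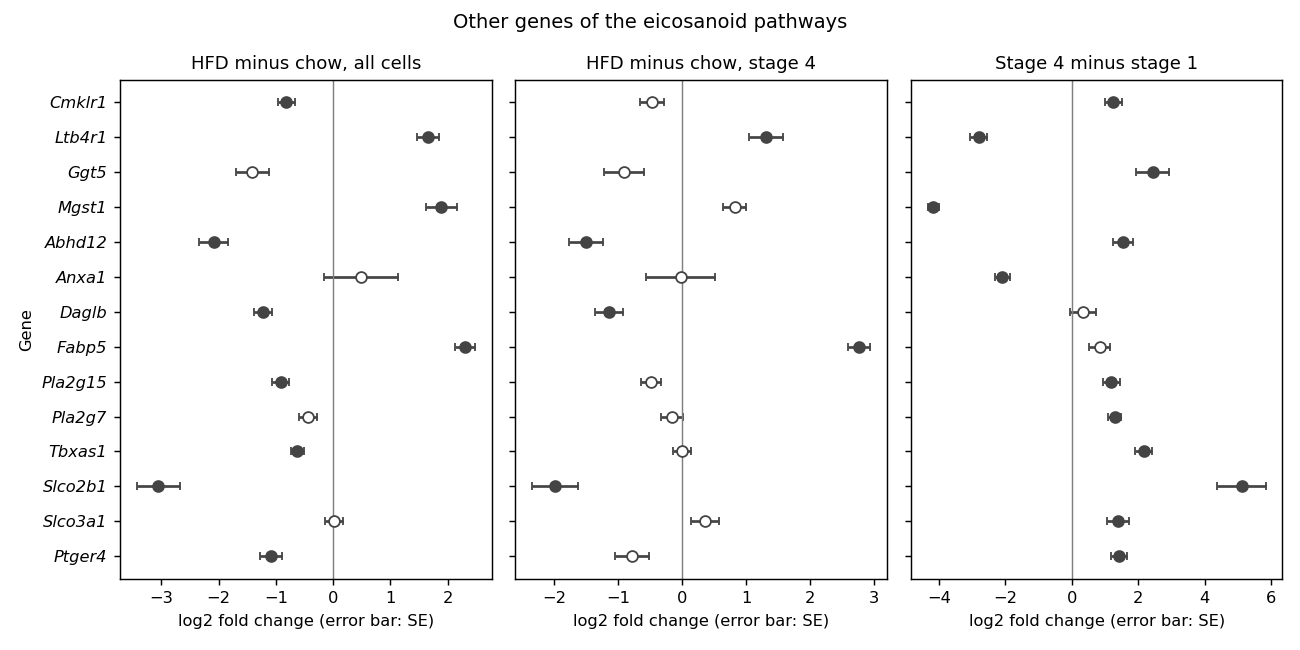
Fitted log2 fold changes (horizontal axes, error bars are SE) of the other named eicosanoid pathway genes (vertical axis), for HFD over chow over all cells and in stage 4 and for stage 4 over stage 1; open markers were not called at an FDR of 1%. Slco2b1 is at -3.05 for diet and 5.10 for stage, and Mgst1 and Ltb4r1 are higher with HFD over all cells and lower in stage 4 than in stage 1.

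From stage 1 to stage 4, 10 of the 30 pathway genes were called higher and 5 lower, with a median log2 difference of 0.41 beside 0.03 over all genes tested, of which 19.7% were called. Slco2b1 was higher at 5.10 ± 0.72 (edgeR adjusted p = 2.13e-05), Ggt5, which cleaves leukotriene C4 to leukotriene D4, at 2.43 ± 0.49 (edgeR adjusted p = 0.000841), and Tbxas1 at 2.16 ± 0.25 (edgeR adjusted p = 1.69e-06). The folds of Slco2b1 and of Ggt5 each rest on 0 to 3.88 CPM in stage 1. Abhd12 was higher at 1.54 ± 0.29, Ptger4 at 1.42 ± 0.23, Slco3a1, a transporter of prostaglandins, at 1.39 ± 0.33 and Pla2g7, the platelet-activating factor acetylhydrolase, at 1.29 ± 0.20. The call of Slco3a1 was lost without chow replicate 11 or HFD replicate 1. Without the term for mouse the calls of Slco3a1 (1.31), Abhd12 (2.05) and Pla2g15 (1.24) were lost, and with Ward clusters those of Slco3a1 (1.72), Ggt5 (2.15) and Ptger4 (1.28). Mgst1 was lower at -4.16 ± 0.17, Ltb4r1 at -2.80 ± 0.24 and Anxa1, a glucocorticoid-induced protein that restrains phospholipase A2, at -2.09 ± 0.24 (edgeR adjusted p = 1.28e-06). Ltb4r1 was at 177.0, 178.4, 204.7 and 235.8 CPM in stage 1 of chow replicates 9 and 11 and HFD replicates 1 and 3, and at 14.2, 15.2, 48.5 and 32.9 CPM in stage 4. Alox5ap and Ltb4r1 thus shared both the higher level in stage 1 and the higher level with HFD in stage 4, while none of the 30 pathway genes was called for a difference of the diet effect between stages 1 and 4 (edgeR, 1% FDR).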

How the data were processed

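Single-cell RNA-sequencing of sorted colonic macrophages and monocytes was analysed. The deposited matrix held UMI counts, which the authors made with kallisto (0.46.0) and bustools (0.39.2) on Ensembl release 97, filtered for cells and genes of low quality and for other cell types, and deposited without normalization; the labels name mm10. Of 11820 genes, 11819 were matched by identifier to symbols. Cell names gave the mouse.

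Cells were staged by the C1q, MHC II and Ly6c2 limits above. UMIs were summed per mouse and stage where every mouse had at least 20 cells. edgeR (4.0.16, R 4.3.3) was run with TMM and the quasi-likelihood test on genes above 1 CPM in at least 2 sums and with a UMI in at least 5% of cells (4 sums, and 5% of at least 1 stage, for stage contrasts, which had a term for mouse), with Benjamini-Hochberg adjustment. The fits were tested on simulated data. Log2 ratios of mean CPM over mice, scaled by library size instead of TMM, were set beside the fitted values. Their median over all genes differed by 0.22 over all cells. In the stage fits that median differed by -0.17 to 0.14. Some members differed by more, as Ptgs1 at 1.73 beside the fitted 0.98 from stage 1 to 3 and at 2.60 beside 3.50 from stage 3 to 4. These ratios also lack the fit and its term for mouse, so scaling is not their only difference from the fitted values. No member changed direction. Alternatives were the likelihood-ratio test, DESeq2 (1.42.0), no filter, other limits, Ward clusters, removal of doublets (Scrublet in scanpy 1.11.5, 38 cells, 0.701%), and each mouse left out. Removal of shared barcodes, removal of plasma and epithelial cells and a C1q limit of 20000 CPM were added after seeing the data.

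The members and the lists were chosen with earlier results of these data known. Genes were named if they were members, pathway genes called for diet, the 10 pathway genes with the largest called change from stage 1 to 4, or the 5 genes most like each member, of which 1 is not reported here. Intervals cover counting error only. Sequences came from RefSeq tables, in which 5 of the 6 members had a promoter.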

Additional observations from a re-analysis of the deposited data

Results flagged for a closer look

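The fitted diet effect on Alox5ap in stage 1 minus that in stage 4 was -1.01 on the log2 scale, past an FDR of 1% in the interaction term of the fit with mouse, with 2 mice per diet. Alox5ap had been selected on its stage and diet values in these cells, so this is a description and no independent test. In stage 4 the HFD mice did not overlap with the chow mice and were higher, and in stage 1 the diets overlapped. The call was lost without chow replicate 9, HFD replicate 1 or HFD replicate 3.

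In stage 3 the HFD mice were lower than the chow mice for Alox5ap without overlap, with a ratio of HFD to chow of 0.949, while in stage 4 they were higher with a ratio of 1.97. The counting intervals of the mice overlapped in stage 3, the fitted value there was -0.18 ± 0.21 and not called, and it reversed in 3 of 16 alternatives. This difference between stages 3 and 4 was not tested.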

How the results depend on the processing

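No paired analysis was possible because the chow mice (replicates 9 and 11) and the HFD mice (replicates 1 and 3) share no replicate number; the stage contrasts use the mouse as a block, and without this replicate block 691, 114 and 37 genes were called for stage 4 minus 1, 3 minus 1 and 4 minus 3, beside 1088, 366 and 196 with it. Of 1062 alternative values, 792 fold changes of named genes kept direction and side of the threshold, 93 lost and 15 gained the threshold, and 15 reversed. The diet fit over all cells called 805 genes, 1307 with the likelihood-ratio test, 1218 without a filter and 155 to 920 with a mouse left out. In stage 1 it called 48 genes, 104 with the likelihood-ratio test, 136 without a filter, 29 and 24 with C1q limits of 10000 and 20000 CPM, 30 with an MHC II limit of 7500 CPM and 46 to 130 with a mouse left out. In stage 3 it called 114 genes, 198 with the likelihood-ratio test, 67 with DESeq2, 229 without a filter, 59, 309 and 754 with C1q limits of 2500, 10000 and 20000 CPM, 66 and 47 with MHC II limits of 7500 and 30000 CPM, 68 with 2 Ly6c2 UMIs and 62 to 211 with a mouse left out. In stage 4 it called 492 genes, 830 with the likelihood-ratio test, 79 with a C1q limit of 20000 CPM, 968 with Ward clusters and 136 to 721 with a mouse left out. Stage 4 minus 1 gave 649 genes with Ward clusters and 760 to 926 with a mouse left out. Stage 3 minus 1 gave 561 with the likelihood-ratio test, 571 without a filter, 652 and 990 with C1q limits of 10000 and 20000 CPM and 161 to 323 with a mouse left out. Stage 4 minus 3 gave 349 with the likelihood-ratio test, 431 without a filter, 3 with a C1q limit of 20000 CPM and 120 to 151 with a mouse left out. The interaction gave 57 genes, 115 without a filter and 35 to 45 with a mouse left out.

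At equal stage shares the log2 ratio of Ptgs1 was -1.22 and -0.83 with C1q limits of 2500 and 10000 CPM and -1.85 with Ward clusters, that of Hpgds -1.24 at 10000 CPM and -2.18 with Ward clusters, and that of Hpgd -1.92 and -2.31. With Ward clusters Alox5ap was at 0.79 and Ltc4s at -2.11. Reversed values were not called, except for Alox5ap in stage 3 at a C1q limit of 20000 CPM, which moves cells of up to that level from stage 4 into it. For diet these were Ptgs2 in stage 1 with Ward clusters (-0.084), Ptgs2 in stage 3 with a mouse left out (-0.18 to 0.28), at a C1q limit of 2500 CPM (-0.29), an MHC II limit of 7500 CPM (-0.090) and 2 Ly6c2 UMIs (-0.052), and Alox5ap in stage 3 without a filter (0.11) and at C1q limits of 2500 (0.019) and 20000 CPM (0.96). For stages these were Hpgd with Ward clusters (-0.094, stage 4 minus 1) and at a C1q limit of 20000 CPM (0.15, stage 3 minus 1) and Ptgs2 with a mouse left out (-0.31 to 0.051, stage 4 minus 3). In the interaction these were Ptgs1 (-0.66 to 0.61) and Hpgd (-0.31 to 1.25) with a mouse left out. The cause of the others was not tested. With a mouse left out, the lone mouse of its diet is assumed to vary like the others. Ward clusters formed no stage 2 or 3. In stage 1, 1 to 10 UMIs per mouse limit Ptgs1, Hpgds and Ltc4s.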
